A study of Homo sapiens with 8 samples.

Results

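The genes described here make, carry, sense and break down retinoic acid, and they were followed in HEK293T cells treated with DZNep. They were chosen by name as 9 genes of the 57500 Ensembl genes in the deposited counts, and their identifiers were matched through GENCODE symbols. The retinal dehydrogenases ALDH1A1, ALDH1A2 and ALDH1A3, the retinoic acid receptors RARA, RARB and RARG, the binding proteins CRABP1 and CRABP2 and the hydroxylase CYP26B1 make up the set. HEK293T, a line of human embryonic kidney origin, expresses the SV40 large T antigen. DZNep blocks the hydrolase AHCY, which clears S-adenosyl-l-homocysteine, and so inhibits methylation in the cell. The RNAseq series comprised 4 DZNep libraries, from cells given 100 µM of the compound for 48 h, and 4 Control libraries, from cells given vehicle for the same 48 h. Replicates were numbered 1 to 4 in each group, and the cells came from a single line in culture.

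Retinoic acid is made from retinol, the circulating form of vitamin A, by a reversible oxidation to retinal and an irreversible oxidation to the acid, the step that the ALDH1A enzymes catalyze. Inside the cell, CRABP proteins carry the acid, RAR proteins bind it on DNA as heterodimers with retinoid X receptors (RXR), and CYP26 enzymes hydroxylate it for removal. RARB and CYP26A1 are textbook target genes of the receptors themselves, through pairs of hexamer motifs in the same orientation that lie near their start sites. In the embryonic kidney and hindbrain, the pathway controls branching, patterning and the expression of HOX genes.

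Library totals ranged from 25043058 counts in Control replicate 1 to 44902779 in DZNep replicate 2. Mitochondrial transcripts took 3.02% to 13.7% of the counts of a library and were highest in replicates 4 and 1 of each group. Of 7 markers of HEK293 cells, 6 passed the low-count filter, the exception being PAX8, and their summed level was 291 to 364 CPM (counts scaled to a fixed library total) in the Control and 290 to 344 CPM in the DZNep libraries, with LHX1 lower among them. Of 5 fibroblast markers 1 was higher with DZNep (LUM), and the summed level of the list was 96.9 to 180 CPM with vehicle and 78.8 to 188 CPM with DZNep. Of 5 keratinocyte markers 2 were tested and 1 of these was higher (TP63), at 24.1 to 67.8 CPM and 44.7 to 64.2 CPM for the list. TP63 averaged 1.03 normalized counts with vehicle and 33.7 with DZNep, so it passed the low-count filter only through the DZNep libraries. The 5 blood cell markers summed to 4.18 to 7.19 CPM with vehicle and 4.41 to 8.72 CPM with DZNep, with HBB at 0 in every library. Among them CD3E, which did not pass the filter, had 0 counts in each Control library and 9, 21, 18 and 36 counts in DZNep replicates 1 to 4, so that the groups did not overlap. Hepatocyte markers summed to at most 1.00 and 1.25 CPM. The part of these markers in the results was not tested. DZNep replicate 2 stood apart in single genes, with 19 counts of COL1A2 against 1002 to 1816 in the other libraries and 367 counts of KRT5 against at most 7. Results for CRABP1 and RARG are given with and without it, while the marker sums include it. It gave the lowest DZNep sum of the fibroblast (78.8 CPM) and blood cell markers (4.41 CPM) and the highest of the HEK293 markers (344 CPM). In such bulk samples, fewer cells of a type and less RNA per cell cannot be told apart.

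Promoter windows of RefSeq (GRCh38.p14), each holding 250 bases before and 50 bases after a start site, were available for 9 of the 9 genes, with 15 windows in all. They were searched on both strands for the hexamer AGGTCA, for its variants with AGTTCA, with GGGTCA or with GGTTCA as letters, and for 2 such hexamers in direct repeat with 1, 2 or 5 bases between them. A direct repeat spaced by 5 bases was found in 1 of the 15 windows, that of the RARB start at chr3:25428013-25428312 (plus strand), from 53 to 37 bases before the start. Of all 35116 windows of the table, 0.0883% held such a repeat, whereas 38.6% held at least 1 hexamer. Outside the 9 genes, CYP26A1, a second hydroxylase of the pathway, held 1 in its window at chr10:93073643-93073942 (plus strand), on the opposite strand from 90 to 74 bases before the start. ALDH1A1, with the largest change among the 9 genes, had neither a hexamer nor a repeat in its window at chr9:72953004-72953303 (minus strand). These 3 windows are shown because they belong to the autoregulated receptor, the autoregulated hydroxylase and the gene that changed most, and the capitals mark the 2 hexamers of the repeat.
RARB: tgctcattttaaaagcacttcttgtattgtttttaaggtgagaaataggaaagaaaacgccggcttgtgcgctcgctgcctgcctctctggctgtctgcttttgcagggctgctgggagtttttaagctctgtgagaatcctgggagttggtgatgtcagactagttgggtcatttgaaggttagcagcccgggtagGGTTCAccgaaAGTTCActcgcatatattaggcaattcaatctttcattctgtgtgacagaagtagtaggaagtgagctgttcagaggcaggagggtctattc
CYP26A1: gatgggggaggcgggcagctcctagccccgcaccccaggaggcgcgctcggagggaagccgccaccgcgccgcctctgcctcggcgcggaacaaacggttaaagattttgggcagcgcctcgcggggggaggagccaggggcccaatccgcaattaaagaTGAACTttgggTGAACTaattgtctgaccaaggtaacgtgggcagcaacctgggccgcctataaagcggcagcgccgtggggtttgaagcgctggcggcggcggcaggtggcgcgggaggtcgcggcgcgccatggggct
ALDH1A1: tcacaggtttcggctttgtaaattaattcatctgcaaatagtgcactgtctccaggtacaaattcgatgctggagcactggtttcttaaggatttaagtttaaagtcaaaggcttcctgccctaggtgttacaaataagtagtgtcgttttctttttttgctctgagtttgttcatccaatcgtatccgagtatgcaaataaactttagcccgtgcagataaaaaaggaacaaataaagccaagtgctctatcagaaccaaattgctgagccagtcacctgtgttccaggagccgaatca
The windows also differed in their CG dinucleotides, with 7 each in those of RARB and ALDH1A1 shown here, 41 in the upstream window of ALDH1A2 and 46 in that of ALDH1A3, where the median over all windows was 14.

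The question put to these 9 genes was which of them differed in transcript level between DZNep-treated and vehicle-treated cells. ALDH1A1 rose 5.09-fold and ALDH1A3 fell to 0.415 of its Control level, as ratios of mean normalized counts (n = 4 each), while the other 7 genes did not pass both thresholds. A call required a Benjamini-Hochberg adjusted p below 0.05 in edgeR's quasi-likelihood test together with a log2 fold change beyond 1 in either direction. All 9 genes passed the low-count filter that left 19171 genes to test. By this rule 1 of the 9 was higher and 1 was lower, shares that lie near the background of 10.6% higher and 13.5% lower among all genes tested. By the p-value threshold alone 2 were higher (ALDH1A1 and RARG) and 1 was lower, against 19.1% and 21.8% of all genes. The median log2 fold change was -0.37 over the 9 genes and -0.03 over all genes tested. In normalized counts, the groups did not overlap for 2 genes that were higher and 1 that was lower, where 19.5% and 19.4% of all genes tested were so placed. Blocking on the replicate number called ALDH1A1 and ALDH1A3 again, against 11.7% and 14.3% of all genes. By the p-value alone the block gave 2 genes higher and 4 lower, against 28.8% and 30.2% of all genes.

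**Figure D1:**
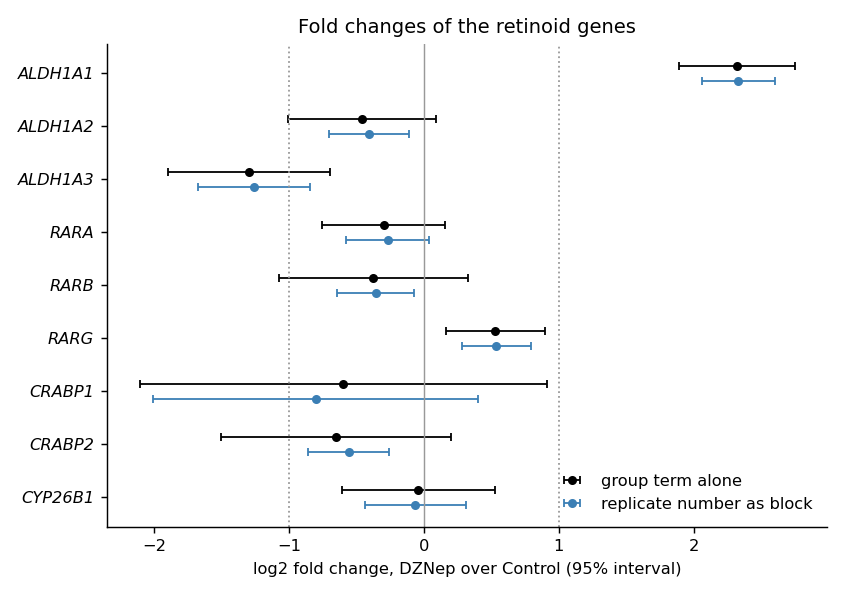
Log2 fold changes of the 9 retinoid genes (horizontal axis, DZNep over Control) with 95% intervals from edgeR, for the group term alone (black) and for the fit that blocks on the replicate number (blue), and dotted lines at the fold change threshold of 1 in either direction. Only the intervals of ALDH1A1, ALDH1A3 and RARG lie off 0 with the group term alone, and those of ALDH1A2, RARB and CRABP2 do so as well with the block.

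ALDH1A1, a cytosolic retinal dehydrogenase that is also widely used as a marker of progenitor cells, gave the clearest change. ALDH1A1 (ENSG00000165092, GRCh38 chromosome 9, 72900671 to 73080442) had normalized counts of 316, 254, 291 and 405 in Control replicates 1 to 4 and of 1514, 1311, 1706 and 1915 in DZNep replicates 1 to 4. The groups were far apart, from 254 to 405 normalized counts with vehicle and from 1311 to 1915 with DZNep. The means were 316 ± 64.4 and 1611 ± 259 normalized counts (SD, n = 4 each). On the log2 scale the fold change was 2.32 ± 0.19 (SE, 95% interval 1.89 to 2.75, edgeR adjusted p = 2.26e-05). Pair by pair, the log2 ratio of DZNep to Control was 2.26, 2.37, 2.55 and 2.24 for numbers 1 to 4, a narrow range. The pseudogene CYP1D1P, the gene annotated within its span, had 2 counts over all libraries.

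ALDH1A3, a retinal dehydrogenase known from the eye, the nasal region and many tumors, went the other way. ALDH1A3 (ENSG00000184254, chromosome 15 from 100877714 to 100916626) had 170, 212, 259.8 and 114 normalized counts in the Control and 66.2, 91.0, 89.8 and 66.4 in the DZNep libraries. The groups did not overlap in normalized counts, and the Control libraries spread more widely than the DZNep libraries. The means were 189 ± 62.0 and 78.4 ± 13.9 normalized counts (SD, n = 4 each), for a log2 fold change of -1.29 ± 0.27 (SE, edgeR adjusted p = 0.00366). Its 95% interval, from -1.89 to -0.69, extended past the fold change threshold on its inner side. It was lower in 4 of 4 pairs. An antisense transcript, ALDH1A3-AS1, overlaps the gene and had 64 counts in all libraries together against 1092 for ALDH1A3, and without stated strandedness the reads of such partners are uncertain.

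ALDH1A2, the main source of retinoic acid in the early embryo, was the most abundant of the 3 enzymes in the Control cells. ALDH1A2 (ENSG00000128918, chromosome 15 from 57953424 to 58497866) had 2012, 3970.2, 2715 and 1803 normalized counts in the Control and 2052, 2131, 2122 and 1484 in the DZNep libraries. The groups overlapped, with Control replicates 1 and 4 inside the DZNep range. A lncRNA on the same strand within its span had 167 counts over all libraries against 19146 for ALDH1A2. A difference was not shown, at -0.46 ± 0.25 on the log2 scale (SE, 95% interval -1.01 to 0.09, edgeR adjusted p = 0.168). Blocking on the replicate number gave -0.41 (edgeR adjusted p = 0.0208).

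The make-up of the ALDH1A transcripts in each library was described per length, as TPM (transcript level per length, scaled to a fixed library total) from counts divided by the exonic length in GENCODE. ALDH1A1 made up 14.5% to 37.0% of the summed TPM of the 3 genes in the Control libraries and 62.3% to 77.6% in the DZNep libraries, without overlap. ALDH1A2 took 67.2% ± 9.19 of that sum with vehicle and 29.4% ± 6.10 with DZNep, and ALDH1A3 took 7.53% ± 1.99 and 1.80% ± 0.392 (SD, n = 4 each). Unlike its normalized counts, the TPM of ALDH1A3 overlapped between the groups. It was 1.23 in Control replicate 4, and 1.72 and 1.76 in DZNep replicates 2 and 3. The sum itself was 42.6 ± 19.9 TPM and 73.0 ± 14.2 TPM (SD, n = 4 each), and the ranges of the groups overlapped. Pair by pair, the sum was higher with DZNep in 4 of 4 pairs, at 30.4 and 67.2 TPM in replicate 1, 65.7 and 74.7 TPM in replicate 2, 52.0 and 91.8 TPM in replicate 3 and 22.2 and 58.4 TPM in replicate 4. By TPM, the leading transcript of the family was therefore ALDH1A2 in each Control library and ALDH1A1 in each DZNep library. The order with DZNep depended on the division by length, with 2840 exonic bases for ALDH1A1 and 8127 for ALDH1A2. By normalized counts, ALDH1A2 stayed above ALDH1A1 in DZNep replicates 1 to 3 (2052, 2131 and 2122 against 1514, 1311 and 1706). Only in DZNep replicate 4 was ALDH1A1 above it (1915 against 1484).

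**Figure D2:**
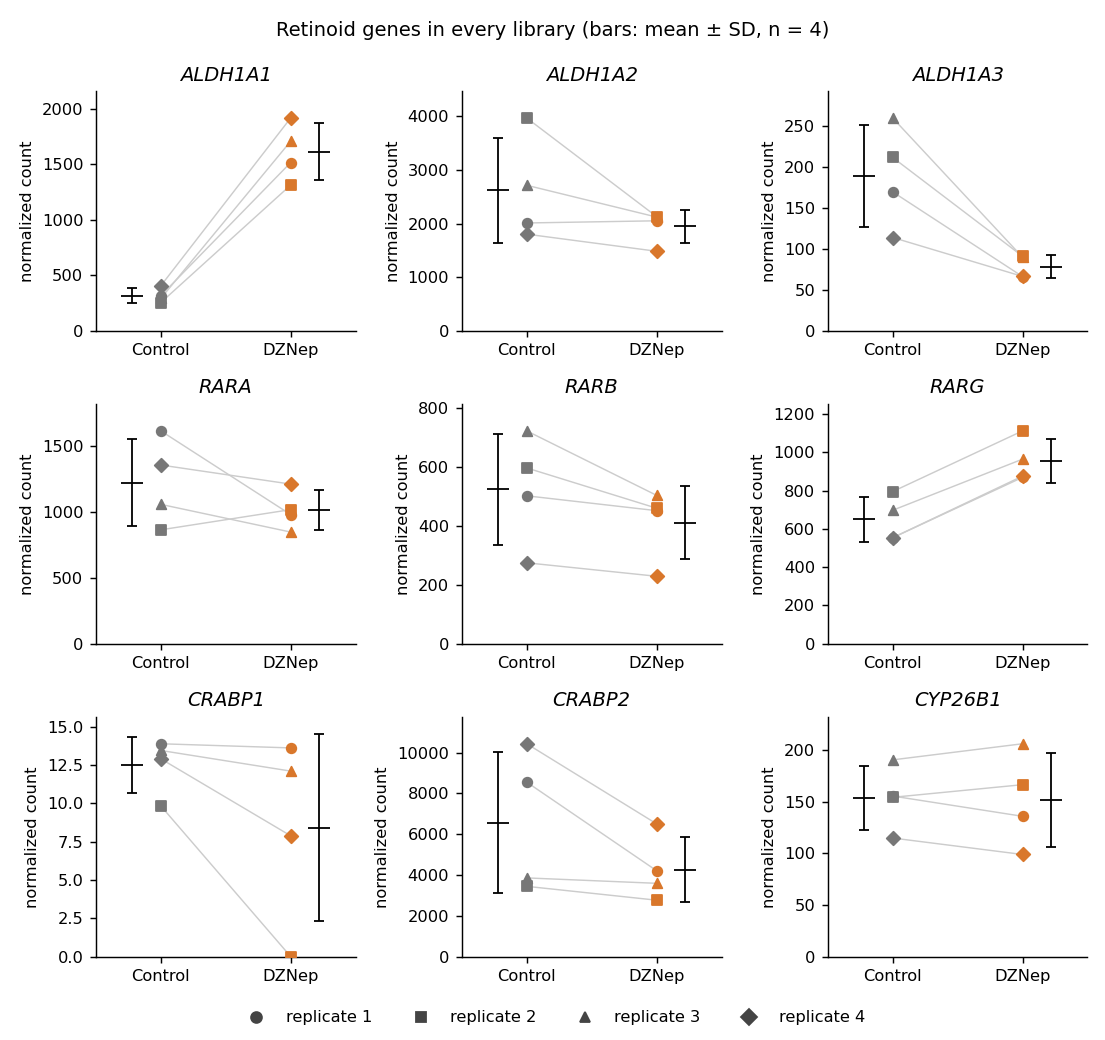
Normalized counts (vertical axis, linear from 0) of the 9 retinoid genes in each Control (grey) and DZNep (orange) library, with lines joining libraries of the same replicate number and bars for the mean ± SD of 4 libraries. The groups are separate for ALDH1A1 and RARG, higher with DZNep, and for ALDH1A3, lower with DZNep, and they overlap for the other genes.

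The binding proteins differed greatly in level. CRABP2, which delivers retinoic acid to the nuclear receptors, was the most abundant of the 9 transcripts, and CRABP1, which holds the acid in the cytosol, was close to the detection limit. CRABP2 (ENSG00000143320, chromosome 1 from 156699606 to 156705816) had 8556, 3443, 3857 and 10440.5 normalized counts in the Control and 4212, 2764, 3592 and 6511 in the DZNep libraries. It was lower with DZNep in 4 of 4 pairs, while the Control libraries alone spread about as widely as all libraries together. The highest values of each group were those of replicates 4 and 1, the libraries with the highest mitochondrial shares (7.76% and 13.7% in Control replicates 1 and 4 against 3.02% and 3.16% in replicates 2 and 3), and the part of those shares in the result was not tested. For CRABP2 the log2 fold change was -0.65 ± 0.38 (SE, 95% interval -1.51 to 0.20, edgeR adjusted p = 0.204). Blocking on the replicate number gave -0.56 (edgeR adjusted p = 0.00329), which passed on the p-value but not on the size of the change.

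CRABP1 (ENSG00000166426, chromosome 15 from 78340353 to 78348225) had 9, 11, 15 and 12 counts in Control replicates 1 to 4 and 15, 0, 14 and 7 counts in DZNep replicates 1 to 4. The count of 0 fell in DZNep replicate 2, the library with few COL1A2 counts, and it allows up to 2.42 normalized counts there, below the 9.82 of the lowest Control library and the 7.87 of the lowest other DZNep library. Such limits cover counting error only. The log2 fold change was -0.60 ± 0.68 (SE, edgeR adjusted p = 0.516). Without DZNep replicate 2 the fitted change was -0.16 on the log2 scale (edgeR adjusted p = 0.778), and the part of that library in the result was otherwise not tested. With all libraries, a difference from the 12.5 ± 1.83 normalized counts of the Control (SD, n = 4) was not shown, and the 95% interval of the log2 fold change ran from -2.11 to 0.91.

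Of the receptors, RARG was higher with DZNep by the p-value alone, and RARA and RARB were not shown to differ with the group term alone. RARG, the receptor best known from skin and skeletal development (ENSG00000172819, chromosome 12 from 53210567 to 53232980), had 553, 795, 697 and 553 normalized counts in the Control and 869, 1111, 964 and 875 in the DZNep libraries. Every DZNep library lay above every Control library in normalized counts, although the margin was small. In TPM the ranges overlapped, with a highest Control value of 16.5 and a lowest DZNep value of 11.5. The means were 649.6 ± 118 and 955 ± 113 normalized counts (SD, n = 4 each), for a log2 fold change of 0.53 ± 0.17 (SE, edgeR adjusted p = 0.027). This passed the threshold on the p-value and not that on the fold change. The edgeR adjusted p-value rose above 0.05 without Control replicate 1 (0.0831), Control replicate 4 (0.0615), DZNep replicate 2 (0.0794) or DZNep replicate 3 (0.0633), and also with a filter that kept each gene with a read (0.0687), while the log2 fold change stayed between 0.45 and 0.64 in all alternatives. Blocking on the replicate number gave 0.54 (edgeR adjusted p = 0.00132).

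RARA, the most widely expressed of the receptors (ENSG00000131759, chromosome 17 from 40309180 to 40357643), had 1619, 866, 1059.7 and 1359 normalized counts in the Control and 982, 1019.6, 849 and 1214 in the DZNep libraries. The groups overlapped, and the gene was lower in 3 of 4 pairs. Its log2 fold change was -0.30 ± 0.21 (SE, 95% interval -0.75 to 0.16, edgeR adjusted p = 0.276). The antisense transcript RARA-AS1 had 897 counts over the 8 libraries against 8879 for RARA, so a share of the reads could belong to either.

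RARB, the receptor gene with the direct repeat shown above and a frequent target of silencing in tumors (ENSG00000077092, chromosome 3 from 24687887 to 25597932), had 501, 595, 721 and 274 normalized counts in the Control and 451, 459, 503 and 228 in the DZNep libraries. Libraries of the same number stood in the same order in each group, with replicate 4 lowest and replicate 3 highest. The log2 fold change was -0.37 ± 0.31 (SE, 95% interval -1.07 to 0.32, edgeR adjusted p = 0.372). The gene was lower in 4 of 4 pairs, and blocking on the replicate number gave -0.36 (edgeR adjusted p = 0.0307). Per length, the summed level of the receptors was 38.2 ± 9.72 TPM with vehicle and 39.6 ± 8.13 TPM with DZNep (SD, n = 4 each). RARG took 29.2% ± 7.47 of it with vehicle and 41.9% ± 3.59 with DZNep (SD, n = 4 each). The ranges overlapped, and the share was higher with DZNep in 4 of 4 pairs.

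CYP26B1, which hydroxylates retinoic acid and sets its boundaries in limb and hindbrain, had nearly equal means. CYP26B1 (ENSG00000003137, chromosome 2 from 72129238 to 72147862) had 156, 154, 191 and 115 normalized counts in the Control and 136, 167, 206 and 99 in the DZNep libraries. The ranges lay over each other, and 2 of 4 pairs were higher. Its log2 fold change was -0.04 ± 0.26 (SE, 95% interval -0.61 to 0.52, edgeR adjusted p = 0.911), and its sign turned with library sizes alone (0.04). Its relative CYP26A1, which clears retinoic acid as one of its target genes, did rise. CYP26A1 (ENSG00000095596, chromosome 10 from 93073475 to 93077885) had 122, 171, 138 and 143 normalized counts in the Control and 347, 509, 429 and 418 in the DZNep libraries, for a log2 fold change of 1.54 ± 0.18 (SE, edgeR adjusted p = 0.000138). Thus, of the genes with the repeat spaced by 5 bases shown above, CYP26A1 was higher with DZNep. RARB was not shown to differ with the group term alone. With the replicate block it was lower by the p-value alone, at -0.36 on the log2 scale (edgeR adjusted p = 0.0307). Other windows of RARB and CYP26A1 hold no such repeat. Counts were summed over each gene, so transcripts from the start site with the repeat were not told apart from the others. Per length, CYP26A1 took 60.4% ± 6.26 of the sum of both hydroxylases with vehicle and 82.1% ± 4.26 with DZNep (SD, n = 4 each).

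**Figure D3:**
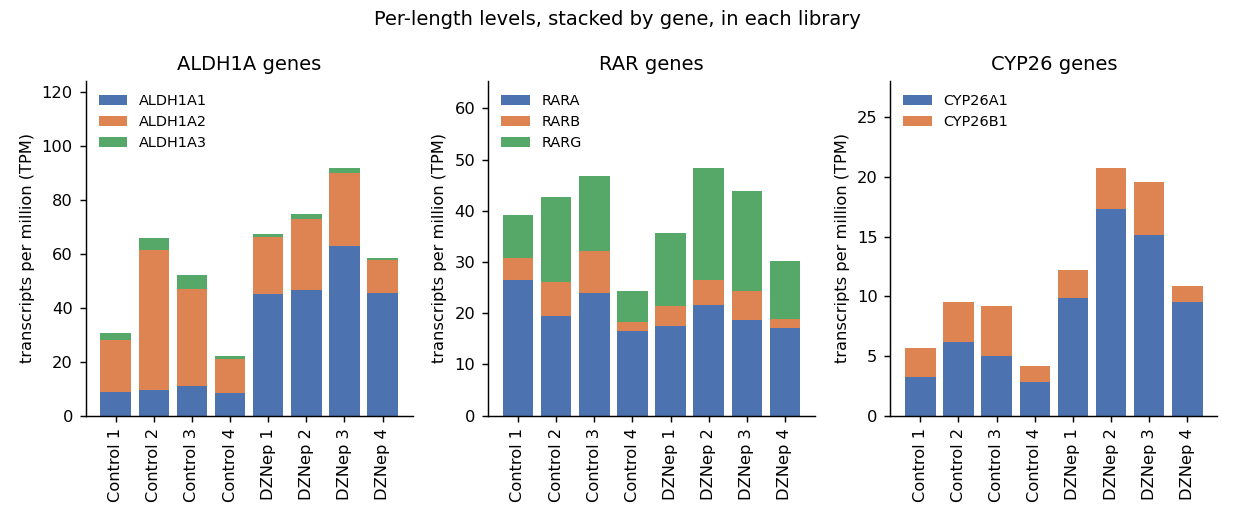
Levels per length (vertical axis, TPM, linear from 0) of the ALDH1A, RAR and CYP26 genes in each library (horizontal axis), stacked by gene. ALDH1A1 is the largest segment of the ALDH1A bars in the 4 DZNep libraries and ALDH1A2 in the 4 Control libraries.

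The order of levels per length was led by CRABP2 in both groups, at 473 ± 134 TPM with vehicle and 334 ± 60.5 TPM with DZNep (SD, n = 4 each). In the Control, ALDH1A2 (30.0 ± 17.6 TPM) and RARA (21.6 ± 4.50 TPM) came next with overlapping ranges, then RARG (11.4 ± 4.90 TPM) and ALDH1A1 (9.35 ± 1.22 TPM), whose ranges overlapped as well. RARB, ALDH1A3, CYP26B1 and CRABP1 followed, at 5.18, 3.29, 2.88 and 1.12 TPM, each overlapping the next. After DZNep, ALDH1A1 (49.9 ± 8.63 TPM) stood in the second place, apart from its neighbours on either side. ALDH1A2, RARA and RARG then overlapped at 21.8, 18.7 and 16.8 TPM. The lowest were RARB, CYP26B1, ALDH1A3 and CRABP1, at 4.03, 2.92, 1.34 and 0.766 TPM, again with overlapping neighbours.

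The surrounding pathway was covered by lists of 78 further genes, of which 57 were tested. Of these, 10 were higher and 9 were lower with DZNep, against the same background of 10.6% and 13.5%, with a median log2 fold change of 0.25. For the uptake and storage of retinol, 7 of 11 genes were tested, and 1 was higher and 1 lower. STRA6, the membrane receptor that takes up retinol, had 44.7, 24.1, 41.2 and 43.0 normalized counts in the Control and 234, 145, 261 and 220.5 in the DZNep libraries, a log2 fold change of 2.47 ± 0.28 (SE, edgeR adjusted p = 0.000105). The groups were well separated. RBP7, a cellular retinol-binding protein, fell by 1.27 on the log2 scale with overlapping groups (adjusted p = 0.0227 by edgeR).

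Among the retinol and retinal oxidoreductases, 12 of 20 genes were tested, 1 was higher and 1 was lower, and the median log2 fold change was -0.56. Over all genes tested, 10.6% were higher and 13.5% lower, with a median of -0.03. RDH12, a retinal reductase of photoreceptors, had 13.9, 14.3, 12.5 and 18.3 normalized counts in the Control and 157, 130.5, 132 and 182 in the DZNep libraries, which gave the largest log2 fold change among the tested genes of the retinoid lists, 3.31 on the log2 scale with a standard error of 0.24 (adjusted p = 1.21e-05 by edgeR). Its divergent neighbour RDH11, which lies 6092 bases away on the opposite strand of chromosome 14, went down, by 0.92 on the log2 scale (adjusted p = 0.022 by edgeR), short of the fold change threshold. DHRS3, which turns retinal back into retinol, fell by 2.04 on the log2 scale (adjusted p = 0.000134 by edgeR), from a mean of 1061 ± 320 to one of 263 ± 36.4 normalized counts (SD, n = 4 each) without overlap. RDH10, which makes the retinal used by the ALDH1A enzymes, was lower by the p-value alone, at a log2 fold change of -0.61 (adjusted p = 0.00825 by edgeR).

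Among the partners of the receptors, the retinoid X receptors went in different directions. RXRG averaged 84.3 ± 17.5 normalized counts with vehicle and 252 ± 25.3 with DZNep (SD, n = 4 each), and rose by 1.54 ± 0.20 on the log2 scale (SE, edgeR adjusted p = 0.000225). RXRB and RXRA had log2 fold changes of 0.74 and -0.48, with adjusted p-values of 0.00631 and 0.0252 by edgeR, both short of the fold change threshold. In normalized counts the groups did not overlap for each of these receptors. Of all genes tested, 19.5% were so placed with DZNep higher and 19.4% with DZNep lower. In TPM the groups overlapped for RXRA, at 9.20 to 20.2 with vehicle and 8.10 to 13.6 with DZNep. They did so for RXRB, at 23.7 to 62.8 and 45.6 to 93.9, but not for RXRG. Per length, RXRA took 24.3% ± 2.15 of the summed RXR level with vehicle and 11.7% ± 1.73 with DZNep, and RXRG took 4.61% ± 0.607 and 9.09% ± 1.48 (SD, n = 4 each). Among the coregulators, PRAME, a repressor of receptor signaling, rose by 1.05 on the log2 scale (adjusted p = 0.000238 by edgeR).

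Of 17 genes known to respond to retinoic acid in other cells, 10 were tested, 3 were higher and 1 was lower, with a median log2 fold change of 0.62. HOXA4 and HOXB4, transcription factors of axial patterning, rose by 2.17 and 2.00 on the log2 scale, with adjusted p-values of 8.66e-05 and 1.21e-05 by edgeR. HOXB4 averaged 179 ± 21.2 normalized counts with vehicle and 728 ± 42.6 with DZNep (SD, n = 4 each), a spread that is small beside the difference. RET, the receptor tyrosine kinase of ureteric bud growth, fell by 1.33 (adjusted p = 0.00425 by edgeR). RARB belongs to the same kind of target and did not pass the test with the group term alone, as given above.

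The aldehyde dehydrogenases outside the ALDH1A branch included 15 tested genes of 16, of which 2 were higher and 5 were lower. The shares over all genes tested were 10.6% and 13.5%, and this list was not tested as a set. ALDH1L2, the mitochondrial formyltetrahydrofolate dehydrogenase, fell by 2.84 on the log2 scale, and ALDH2, the mitochondrial acetaldehyde enzyme, fell by 1.58, with adjusted p-values of 0.000156 and 0.00196 by edgeR. ALDH3A1, an enzyme of the cornea that detoxifies aldehydes, rose by 2.60, and ALDH8A1, which is known to oxidize 9-cis-retinal, rose by 1.72, from a mean of 53.9 ± 23.1 to one of 181 ± 41.6 normalized counts (SD, n = 4 each), with adjusted p-values of 5.74e-05 and 0.00181 by edgeR. Members of this family thus moved in both directions, as the ALDH1A genes did.

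**Figure D4:**
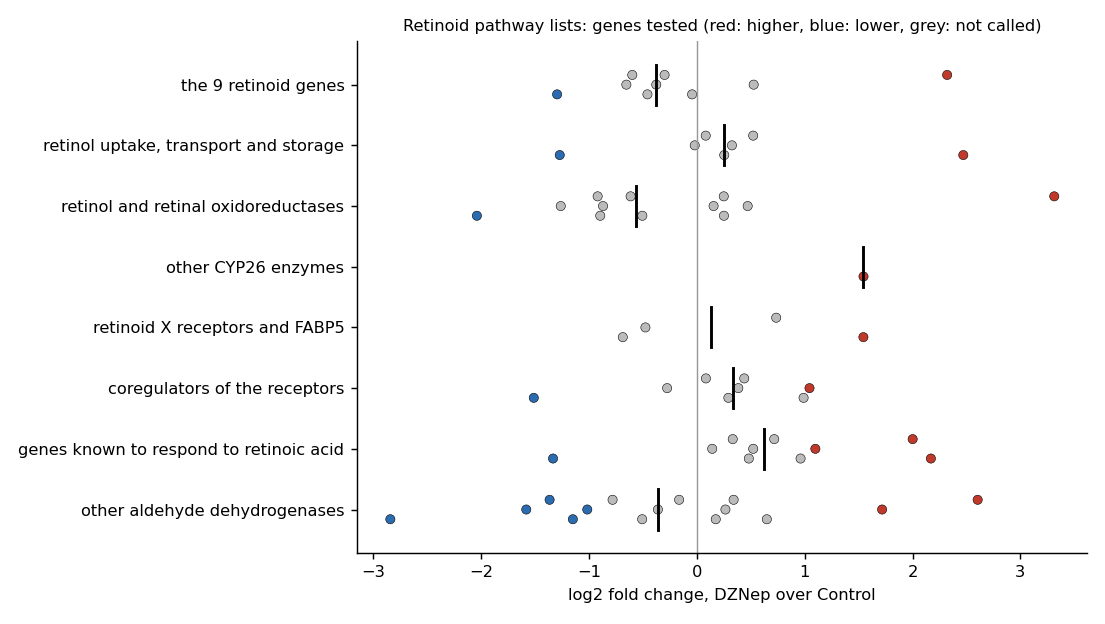
Log2 fold changes (horizontal axis, DZNep over Control) of the tested genes in each retinoid pathway list (rows), with genes that were higher in red, lower in blue and not called in grey, and a black bar at the median of each list. The 9 retinoid genes have 1 red and 1 blue point, and the genes known to respond to retinoic acid have 3 red points and 1 blue point. Of all genes tested, 10.6% were higher and 13.5% lower.

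Of the 21 listed genes that were not tested, 3 had at most 1 count in each Control library and at least 4 counts in each DZNep library. The share of all genes below the filter with such counts was not determined, so this count is not read as a trait of the lists. Against a floor of 3 counts in each Control library, TTR, a carrier of retinol-binding protein in blood, was at least 3.70-fold higher, AKR1B10, a retinal reductase, at least 2.80-fold higher and SDR16C5, a retinol dehydrogenase, at least 1.54-fold higher. These bounds take the DZNep means as measured, and SDR16C5 had only 4 to 8 counts in each DZNep library. Each gave a p of 0.0286 in the two-sided exact permutation test, the smallest that 4 libraries against 4 allow, without adjustment for the number of genes. Because the 3 genes were picked for groups that did not overlap, that p was fixed by the choice and adds no support. AKR1B10 had 0 counts in every Control library and 14, 11, 10 and 6 counts in the DZNep libraries.

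The genes whose profile was most like that of a called member were found among 13557 tested genes with a symbol and an average log2 CPM of at least 1. Likeness was the root mean square difference over the 8 libraries of log2(normalized count + 1), each gene being centred on its Control mean. For ALDH1A1, the nearest were GPER1 on chromosome 7, at 0.166, and MUC1 on chromosome 1, at 0.183, where the median over all candidates was 1.71. These genes had log2 fold changes of 2.15 and 2.30. For ALDH1A3, the nearest were KCNQ5 on chromosome 6, at 0.125, and IFT81 on chromosome 12, at 0.127, with a median of 1.00 over the candidates and log2 fold changes of -1.24 and -1.32.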

How the data were processed

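RNAseq was measured in 8 HEK293T libraries, which were grouped by the treatment and replicate number in the sample labels. From paired 150 bp reads, the authors removed adapters (Trimmomatic 0.36), aligned to GRCh38 (STAR 2.5.2b) and tallied uniquely mapped exon reads by gene (featureCounts of Subread 1.5.2). The annotation release and the strandedness are not given in the sources used here. They deposited these counts without normalization, and a signal of normalized counts for 19118 genes, which were found to equal the counts over a library-wide size factor. Normalized counts in the text are counts over those factors, so genes outside that table could be scaled too.

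Symbols, coordinates and exonic lengths came from GENCODE 44 (56410 identifiers matched), whose coordinates may differ from the release used for counting. Differences were tested with edgeR 4.0.16 in R 4.3.3 (TMM, filterByExpr, quasi-likelihood test, Benjamini-Hochberg adjustment over 19171 genes), in place of the DESeq2 Wald test of the study. Standard errors were derived from the F statistic. On simulated counts of 18760 genes for this comparison, with 200 changed by 2 on the log2 scale, 196 were recovered and 6 unchanged genes were called. The replicate numbers were taken to pair the libraries. Deviations from the group means correlated by 0.14, 0.49, 0.43 and 0.67 between libraries numbered 1 to 4. Libraries of different numbers were not compared in this way, so these values cannot show that the pairing follows the number. No replicate pair was alike within sampling noise (lowest chi-square per degree of freedom 16.1). Per the paper, the replicates are biological.

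The 9 genes and the lists, written from general knowledge, were chosen with earlier results of these data known. All 9 genes are named. Of the other lists, called genes are named, up to 4 per list by size, with the RXR genes in any case, and RDH10, RDH11, TTR, AKR1B10 and SDR16C5 were named after their values were seen. Some called genes of these lists are not reported here by name. Alternatives were DESeq2 1.42.0, limma 3.58.1 on log2(normalized count + 1), other normalizations and filters, the block, other pseudocounts and each library left out.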

Additional observations from a re-analysis of the deposited data

Results flagged for a closer look

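Within the groups of 4 libraries, 18 sets of values (9 genes in 2 groups) were examined for a library far from the others, and 1 was found. ALDH1A2 had 1484 normalized counts in DZNep replicate 4, while the nearest DZNep library had 2052. The gap took 0.878 of the whole range of the group, above Dixon's 95% critical value for 4 samples. About 1 in 20 groups is flagged by chance. Control replicate 4 was also the lowest of its group for this gene, at 1803 normalized counts.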

How the results depend on the processing

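The calls of ALDH1A1 (higher) and ALDH1A3 (lower) held in each of 15 alternatives, with log2 fold changes of 2.22 to 2.46 and -1.48 to -1.10. With each library left out in turn, 1 gene of the 9 was higher and 1 was lower throughout, between 1936 and 2383 of all genes were higher and between 2322 and 2993 lower, and 10 to 13 other pathway genes were higher and 7 to 11 lower. The largest move came from dropping the fold change threshold, which gave 2 of the 9 genes higher, 3656 of all genes higher and 4171 lower, and 14 other pathway genes lower. A filter of at least 10 reads in every library left 1141 of all genes higher, since fewer genes were tested, and gave no value for CRABP1. CYP26B1 changed sign with library sizes alone (0.038) and between -0.22 and 0.12 with single libraries left out, never past the threshold. The replicate block (2243 genes higher and 2736 lower) moved ALDH1A2, RARB and CRABP2 past the p-value threshold alone and changed no call by both thresholds among the 9 genes. Other pseudocounts turned no direction. CRABP1 moved between -0.92 and -0.16 with single libraries left out, the latter without DZNep replicate 2, where it had 0 counts.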
